A study of Mus musculus with 10 samples.

Results

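The 9 genes described here encode mitochondrial enzymes: 8 enzymes or catalytic subunits of the tricarboxylic acid (TCA) cycle (Cs, Idh2, Idh3a, Ogdh, Sucla2, Sdha, Fh1 and Mdh2) and Acod1, which makes itaconate from an intermediate of the cycle. They were chosen by gene symbol, by a rule that used no measured values, though earlier results of these data were known. They are 9 of the 46957 loci that each sample's table lists. All 9 have a locus of their own with 1 symbol, and all 9 were among the 12501 loci with enough fragments to be tested.

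The samples are tumour-associated macrophages sorted from tumours of the mouse mammary carcinoma line 4T1, of which 100000 cells were injected into mammary fat pads of BALB/cJ mice. Mice of the vehicle group (5 samples) received PBS. Mice of the JHU083 group (5 samples) received 1 mg/kg JHU083 from day 7 to day 13, and both groups were harvested on day 14. JHU083 releases 6-diazo-5-oxo-L-norleucine, an antagonist that resembles glutamine and inhibits enzymes which use it. Sorted cells excluded the dye 7AAD (live cells), carried CD45, CD11b and F4/80 (leukocyte and macrophage antigens), and lacked CD8, Ly6C and Ly6G, antigens of cytotoxic T cells, monocytes and neutrophils. The labels number the samples in each group and do not say whether each came from its own mouse, so p-values measure the spread between these samples.

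In the TCA cycle, acetyl groups from pyruvate or fatty acids are joined to oxaloacetate and oxidised step by step, and the electrons released are passed to the respiratory chain. Glutamine feeds the cycle after conversion to glutamate and alpha-ketoglutarate, the substrate of the oxoglutarate dehydrogenase complex. In macrophages activated by microbial products or interferons, Acod1 is induced and decarboxylates cis-aconitate to itaconate, an inhibitor of succinate dehydrogenase. The comparison asks how a glutamine antagonist given to the animal changes the transcripts of these enzymes in tumour macrophages.

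Each library held between 11147870 and 15740701 fragments, and the 9 genes had between 26 and 4478 fragments per sample. Macrophage markers (Csf1r, Adgre1, Cd68, Itgam, Mertk, Fcgr1 and C1qa) summed to 8041 to 9876 CPM (fragment counts scaled to the size of the library) in vehicle samples and 9787 to 12110 CPM in JHU083 samples, and 3 of the 7 (Csf1r, Adgre1 and Mertk) were higher. Marker transcripts of other cells were also present and moved with treatment. Beside these counts of markers, 18.4% of all tested loci were higher and 18.3% lower. Markers of tumour epithelium summed to 274 to 588 CPM in vehicle and 96.5 to 198 CPM in JHU083 samples, and all 6 were lower. Endothelial markers summed to 122 to 210 and 33.96 to 82.3 CPM (1 of 3 tested was lower, Pecam1, which made up most of the sum), and fibroblast markers to 73.2 to 157 and 18.4 to 85.0 CPM (4 of 6 were lower). Neutrophil markers summed to 35.3 to 46.5 and 13.4 to 65.7 CPM, with S100a8 and S100a9 lower and Ly6g, Mpo and Elane under 1 CPM in every sample. T cell markers summed to at most 22.6 CPM in vehicle samples and to 30.2 to 47.9 CPM in JHU083 samples, with Cd4 higher and making up most of the sum, and Cd3d, Cd3e and Cd8a under 1 CPM in every sample. B cell, NK cell, eosinophil and dendritic cell markers each summed to at most 17.4 CPM in any sample, with the B cell marker Cd79b and the eosinophil marker Siglecf higher. No marker was at 0 in all samples, and the part of these cells in the results on the 9 genes was not tested. The mitochondrially encoded share of fragments was 1.53% to 2.09% in vehicle and 2.14% to 2.44% in JHU083 samples.

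Transcripts of 5 of the 9 enzymes were lower in macrophages from JHU083-treated mice. These were Acod1, the malate dehydrogenase Mdh2, the fumarase Fh1, citrate synthase Cs, and Idh3a, the catalytic subunit of NAD-dependent isocitrate dehydrogenase. None of the 9 was higher in edgeR's quasi-likelihood test at an adjusted p of 0.05 over all tested loci; 0 were higher at an unadjusted p of 0.05 or with DESeq2. The other 4 (Idh2, Ogdh, Sucla2 and Sdha) did not pass the test. Of all tested loci, 18.3% were lower and 18.4% were higher, so the 5 of 9 stand beside a background of 18.3%. The median log2 fold change of the 9 genes was -0.35, against 0.01 over all tested loci. In Cs, Mdh2 and Acod1 all 5 JHU083 samples lay below all 5 vehicle samples, as they did in 11.1% of all tested loci. These are bulk measurements, in which fewer cells of a type and less RNA per cell cannot be told apart.

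**Figure D1:**
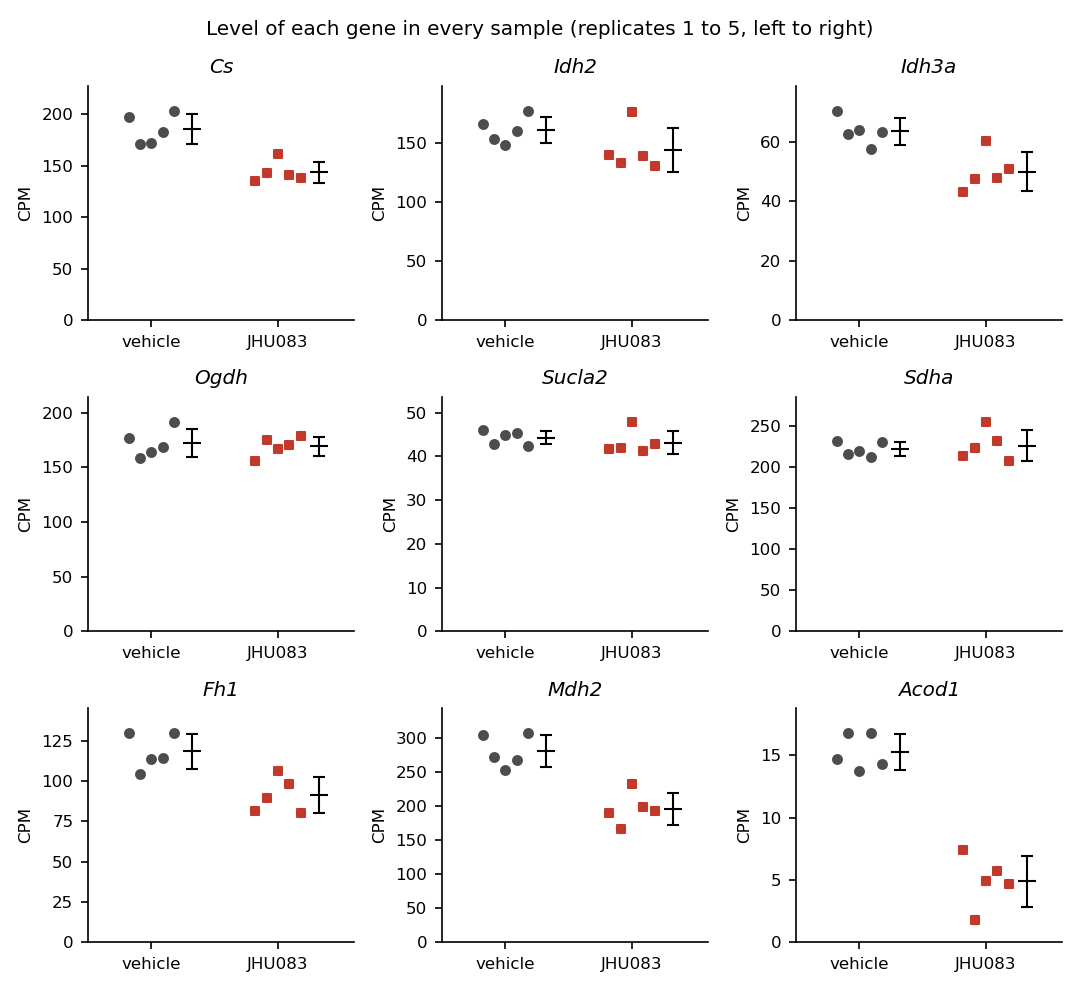
Level in CPM (y axes from 0) of each of the 9 genes in the 5 vehicle samples (circles) and the 5 JHU083 samples (squares), replicates 1 to 5 from left to right, with the mean and SD of each group beside them. The groups do not overlap for Cs, Mdh2 and Acod1, and in Idh3a and Fh1 the JHU083 sample that overlaps the vehicle samples is replicate 3.

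The stretches just upstream of the starts of 4 genes that fell are shown so that their promoters can be compared, Acod1 being an inducible gene and the others encoding constitutive enzymes. They come from the RefSeq promoter windows of GRCm38.p6, 5′ to 3′ on the gene's strand, and 8 of the 9 genes had an entry. For Acod1 the 215 bases at chr14:103046762-103046976 (plus strand) are shown, which end before the GENCODE M21 start, so the last bases of the window searched for motifs are left off. The window of Cs is chr10:128337477-128337726 (plus strand) and that of Fh1 is chr1:175625636-175625885 (minus strand). Of Mdh2 the 30 bases at chr5:135778511-135778540 (plus strand) are given, with a match to the cyclic AMP response element in capitals, 127 to 120 bases before the RefSeq start.
Acod1: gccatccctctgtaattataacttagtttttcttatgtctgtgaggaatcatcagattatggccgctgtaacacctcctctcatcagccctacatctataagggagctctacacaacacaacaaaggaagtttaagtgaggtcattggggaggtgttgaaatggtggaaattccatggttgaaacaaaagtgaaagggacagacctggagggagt
Cs: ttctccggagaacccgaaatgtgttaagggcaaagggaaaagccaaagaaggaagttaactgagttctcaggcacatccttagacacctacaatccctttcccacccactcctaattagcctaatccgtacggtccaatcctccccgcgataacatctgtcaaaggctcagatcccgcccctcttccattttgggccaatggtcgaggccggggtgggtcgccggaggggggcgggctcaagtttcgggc
Fh1: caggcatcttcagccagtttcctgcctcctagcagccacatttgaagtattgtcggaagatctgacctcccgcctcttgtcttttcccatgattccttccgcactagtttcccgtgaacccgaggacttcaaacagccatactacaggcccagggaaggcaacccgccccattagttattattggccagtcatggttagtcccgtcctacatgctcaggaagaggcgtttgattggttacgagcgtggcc
Mdh2: ggagagaatcgTGACGTCAggcctcgctcg
Both strands of the 250 bases before each start were searched for 8 motifs, and the share of all 32851 mouse windows of that length that hold each is given beside it. The motifs were NRF1 (GCGCATGCG, 1.45%), ERR (AAGGTCA, 4.08%), ETS (CCGGAAG, 6.91%), the E-box (CACGTG, 6.02%), CRE (TGACGTCA, 1.55%), AP-1 (TGANTCA, 6.75%), an interferon-response element repeat (GAAANNGAA, 7.13%) and NF-kB (GGGNNTTCC, 4.98%). Apart from the CRE match of Mdh2, matches were found before the starts of Ogdh, whose several RefSeq starts have CRE, E-box or NRF1 letters. The windows of Acod1, Cs, Fh1, Idh2, Sucla2 and Sdha held none of these letters. The GENCODE M21 start of Mdh2 lies upstream of its RefSeq start, so the match falls within the GENCODE gene.

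Citrate synthase, encoded by Cs (chr10:128337734-128362479), joins acetyl-CoA to oxaloacetate and is the entry of carbon into the cycle. Its level in vehicle samples 1 to 5 was 198, 171, 172, 183 and 203 CPM. In JHU083 samples 1 to 5 it was 135, 142, 161, 141 and 138 CPM. Every JHU083 sample was below every vehicle sample, the closest being JHU083 replicate 3. Cs fell from 185 ± 14.5 to 143 ± 10.2 CPM (SD, n = 5 each), a log2 fold change of -0.37 (SE 0.075, 95% interval -0.53 to -0.21, adjusted p = 0.00177).

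The next oxidation is carried out by 2 mitochondrial isocitrate dehydrogenases, the NAD-dependent enzyme, whose catalytic subunit is Idh3a (chr9:54586334-54604661), and the NADP-dependent Idh2 (chr7:80094846-80115392), which also supplies NADPH. Idh3a stood at 70.2, 62.6, 64.0, 57.4 and 63.2 CPM in vehicle samples. Its JHU083 samples were at 43.0, 47.6, 60.3, 47.9 and 51.0 CPM. Replicate 3 of the JHU083 group lay within the vehicle range and the other 4 lay below it. The log2 fold change of Idh3a was -0.35 (SE 0.093, 95% interval -0.55 to -0.15, adjusted p = 0.0102).

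Idh2 was at 166, 153, 148, 160.0 and 177 CPM in vehicle samples. The JHU083 samples were at 139, 133, 176, 139 and 130.4 CPM. Here 4 JHU083 samples lay below all vehicle samples, whereas replicate 3 was as high as the highest vehicle samples. The log2 fold change of -0.16 (SE 0.088, 95% interval -0.35 to 0.03) did not pass the test (adjusted p = 0.159). Without JHU083 replicate 3 it was -0.24 (adjusted p = 0.00843), and with all 10 samples it also passed under scaling by library size alone (-0.25, adjusted p = 0.0257) and with limma-voom's sample weights (-0.22, adjusted p = 0.0162).

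Ogdh (chr11:6291633-6356642) encodes the first subunit of the oxoglutarate dehydrogenase complex, the step at which carbon from glutamine enters. Its vehicle samples were at 177, 159, 164, 169 and 191 CPM. Its JHU083 samples were at 156, 175, 166, 170.5 and 179 CPM. The groups overlapped almost completely, with a log2 fold change of -0.02 (SE 0.070, 95% interval -0.17 to 0.13, adjusted p = 0.814).

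Sucla2 (chr14:73525319-73596142) encodes the beta subunit of the ATP-forming succinyl-CoA synthetase. It was measured at 46.1, 43.0, 44.8, 45.4 and 42.4 CPM in vehicle samples and at 41.7, 42.0, 47.9, 41.4 and 42.9 CPM in JHU083 samples. Replicate 3 of the JHU083 group was the highest of all 10 samples, and the others overlapped the vehicle samples or lay just below them. The log2 fold change was -0.04 (SE 0.071, 95% interval -0.19 to 0.11, adjusted p = 0.697).

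Sdha (chr13:74322254-74350280) encodes the flavoprotein of succinate dehydrogenase, the enzyme that itaconate inhibits and that belongs to both the cycle and the respiratory chain. Levels in vehicle samples were 232, 215, 219, 212 and 231 CPM. Levels in JHU083 samples were 213, 223, 255, 232 and 207 CPM. The groups overlapped, again with JHU083 replicate 3 the highest of all 10 samples, and the log2 fold change was 0.03 (SE 0.070, 95% interval -0.12 to 0.18, adjusted p = 0.796), or -0.06 with scaling by library size alone. For Ogdh, Sucla2 and Sdha these intervals include 0 and extend to -0.17, -0.19 and 0.18 on the log2 scale, so smaller differences were not resolved.

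Fumarate hydratase, encoded by Fh1 (chr1:175600374-175625635), turns fumarate into malate. Vehicle samples were at 129.7, 105, 114, 114 and 129.5 CPM. JHU083 samples were at 81.4, 89.7, 106, 98.4 and 80.1 CPM. Replicate 3 of the JHU083 group passed the lowest vehicle sample and the other 4 lay below all vehicle samples. Fh1 had a log2 fold change of -0.38 (SE 0.094, 95% interval -0.58 to -0.18, adjusted p = 0.00648).

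Mdh2 (chr5:135778480-135790398) encodes the mitochondrial malate dehydrogenase, which regenerates oxaloacetate and is also part of the malate-aspartate shuttle. It was at 304, 272, 254, 268 and 307 CPM in vehicle samples. In JHU083 samples it was at 189.6, 167, 233, 198 and 192 CPM. No sample overlapped the other group. On the fragment counts Mdh2 had the largest change of the 8 cycle enzymes, from 281 ± 23.6 to 196 ± 23.8 CPM (SD, n = 5 each) and a log2 fold change of -0.52 (SE 0.089, 95% interval -0.71 to -0.33, adjusted p = 0.000553).

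Acod1 (chr14:103046977-103056573), the itaconate-producing cis-aconitate decarboxylase, was low in both groups. Vehicle samples were at 14.7, 16.8, 13.7, 16.8 and 14.3 CPM. JHU083 samples were at 7.43, 1.78, 4.92, 5.73 and 4.65 CPM, which corresponds to as few as 26 fragments in replicate 2. The highest JHU083 sample was below the lowest vehicle sample, and the vehicle samples were close together while the JHU083 samples were spread over several fold. The mean went from 15.2 ± 1.42 to 4.90 ± 2.06 CPM (SD, n = 5 each), a log2 fold change of -1.64 (SE 0.24, 95% interval -2.15 to -1.12, adjusted p = 0.000173). The sort removed Ly6G-positive cells, and of the 7 neutrophil markers 2 of the 4 tested were lower. S100a8 was at 5.20 to 9.16 CPM in vehicle and 1.51 to 4.03 CPM in JHU083 samples, and S100a9 at 13.3 to 18.7 and 0.89 to 6.71 CPM. The other tested markers did not pass and had higher means in JHU083 samples, Cxcr2 with 2.04 and 3.10 CPM and Retnlg with 14.2 and 19.4 CPM. Neutrophils can also express Acod1, and their part in its change was not tested.

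**Figure D2:**
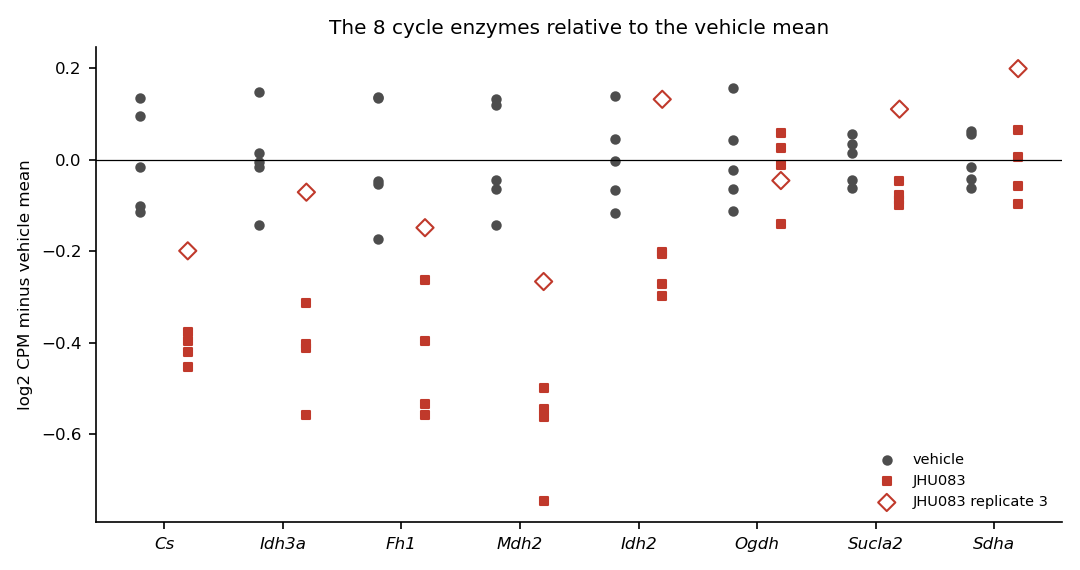
Log2 CPM minus the mean of the vehicle samples (y axis) for the 8 cycle enzymes, with vehicle samples as circles, JHU083 samples as squares and JHU083 replicate 3 as an open diamond. The 4 enzymes at the left that passed the test have most JHU083 samples between -0.75 and -0.26, and the diamond lies above the other JHU083 samples of its gene in 7 of the 8 enzymes.

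Most of the cycle enzymes varied together between samples of a group, and Acod1 and Ogdh did so less. Over the 10 samples, Pearson's r of their deviations from the group means had a median of 0.574 over the 36 pairs and ranged from -0.422 to 0.936. The highest values were those of Fh1 with Sdha (0.936), Mdh2 with Idh2 (0.876) and Idh2 with Cs (0.874), and the lowest was that of Acod1 with Ogdh. Acod1 ranged from -0.422 to 0.441 (with Mdh2) against the 8 other genes, and Ogdh from -0.095 (with Sucla2) to 0.591 (with Cs) against the other cycle enzymes. The points share their libraries, so these values describe the samples and carry no test. JHU083 replicate 3 was the highest of its group in 7 of the 9 genes, and without it Cs, Idh3a, Fh1 and Mdh2 stood at -0.41, -0.42, -0.44 and -0.59 on the log2 scale. It also had the highest summed macrophage markers (12110 CPM) and the lowest summed epithelial (96.5 CPM) and fibroblast (18.4 CPM) markers of all samples; their part in its levels was not tested.

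A second split of the samples runs across the treatment. Of the ribosomal RNA-related loci Rn18s-rs5 and Gm42418, 3 vehicle and 2 JHU083 tables list no fragments, and in the others they held 2.87% to 5.59% of fragments. Within the 5 samples that were not at 0, the 5 genes kept their direction and their call, with log2 fold changes of -0.41 for Cs (adjusted p = 0.0255), -0.47 for Idh3a (0.0163), -0.46 for Fh1 (0.025), -0.60 for Mdh2 (0.00792) and -1.82 for Acod1 (0.00339). Within the 5 samples listed at 0, 1 of the 9 genes passed the test, Acod1 with -1.36 (adjusted p = 0.00798). There the values were -0.32 for Cs (0.16), -0.24 for Idh3a (0.391), -0.30 for Fh1 (0.245) and -0.41 for Mdh2 (0.0837). JHU083 replicate 3 is 1 of the 2 JHU083 samples in that set. With the status at these loci as a covariate in a fit of all 10 samples, the calls of the 5 genes held.

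Levels per length were read from the deposited FPKM values (fragments scaled by length and library size), since counts cannot be compared between genes. In vehicle samples Mdh2 was the most abundant of the 9, at 213 ± 18.6 FPKM (SD, n = 5). Sdha and Idh2 followed at 113 ± 9.90 and 97.3 ± 6.08 FPKM, with overlapping samples. Next came Cs, Fh1 and Ogdh at 65.0 ± 4.87, 56.6 ± 8.62 and 42.0 ± 3.07 FPKM, each overlapping its neighbour. Idh3a and Sucla2, at 26.6 ± 1.905 and 25.7 ± 1.04 FPKM, could not be ordered. Acod1 was the lowest at 5.81 ± 0.5425 FPKM. In JHU083 samples Mdh2 again had the highest mean at 149.5 ± 18.4 FPKM and Acod1 the lowest at 1.87 ± 0.788 FPKM, with Sdha at 131 ± 11.2 FPKM. The length implied by the deposited counts and FPKM varied most between samples for Sdha and Fh1, by up to 1.32-fold. For Sucla2 it varied by up to 1.107-fold. Relative to the lowest sample, it averaged 1.202 in vehicle and 1.055 in JHU083 samples for Sdha. The means of vehicle and JHU083 samples were 1.091 and 1.241 for Fh1, and 1.062 and 1.012 for Sucla2. On the deposited FPKM, limma gave Fh1 a log2 fold change of -0.56 (adjusted p = 0.00487), larger than that of Mdh2 (-0.52), and Sdha 0.22 (adjusted p = 0.0629), on the scale of log2(FPKM + 0.1), so the sizes for these genes depend on how length was handled.

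Ratios of enzymes that share a substrate or a reaction were compared within samples, where library scaling cancels out. The log2 ratio of mitochondrial Mdh2 to cytosolic Mdh1 was 1.04, 1.08, 1.04, 1.06 and 1.15 in vehicle samples and 0.69, 0.66, 0.77, 0.78 and 0.73 in JHU083 samples. Here the groups were far apart relative to their spread, with a difference of -0.34 (exact two-sided permutation test over all splits, p = 0.0079, adjusted over 3 ratios 0.0238), and 0.0079 is the smallest p these splits can give. The ratio of Sucla2 to Suclg2, the ATP- and GTP-forming beta subunits, went from 0.10 ± 0.167 to -0.09 ± 0.0584 (SD, n = 5; exact permutation p = 0.0476, adjusted 0.0556). It passed with an adjusted 0.0119 and a difference of -0.25 without vehicle replicate 3. The ratio of Idh3a to Idh2 went from -1.34 ± 0.133 to -1.52 ± 0.123 (SD, n = 5; exact permutation p = 0.0556, adjusted 0.0556). Neither of the last pair of ratios passed after adjustment, and their samples overlapped.

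**Figure D3:**
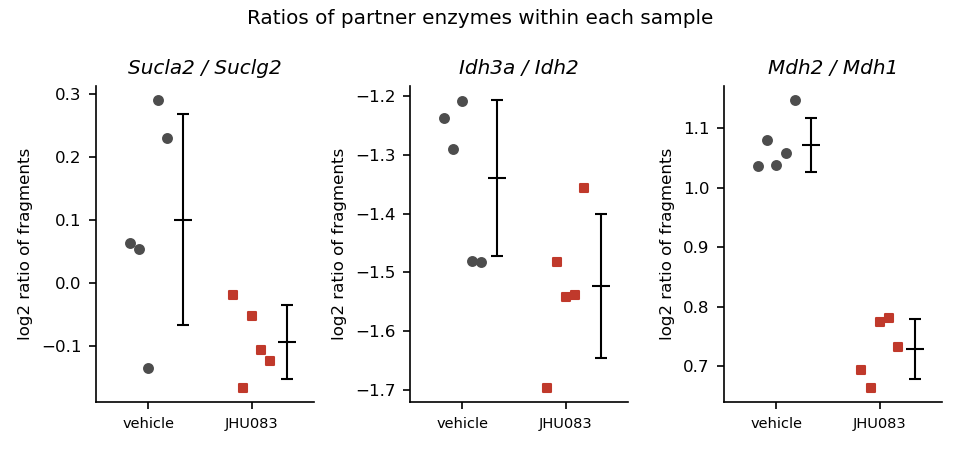
Log2 ratio of fragments (y axes, each with its own range) for 3 pairs of partner enzymes in vehicle samples (circles) and JHU083 samples (squares), with mean and SD. The groups do not overlap for Mdh2 to Mdh1 and overlap for the other pairs.

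Around the 9 genes, 50 further genes of the cycle and its connections were listed in 8 groups, of which 47 were tested. Of these 7 were higher, beside 18.4% of all tested loci, and 13 were lower (27.7%, beside 18.3%), and their median log2 fold change was -0.08. Within the samples with no fragments at the ribosomal loci 0 were higher and 2 lower (Pdk1 and Irf1). Within the samples that had such fragments, the calls of Pdk2, Pdp1, Pdpr, Dlst, Idh1, Pcx, Slc25a13, Nfe2l2 and Keap1 were lost, with Idh1 at 0.31 (adjusted p = 0.0663) and Nfe2l2 at 0.30 (adjusted p = 0.0807). With the status at those loci as a covariate, the calls of Pdp1 (0.32, adjusted p = 0.0613) and Pcx (-0.36, adjusted p = 0.0552) were lost. On the deposited FPKM 7 of the calls named in the following were lost, those of Pdk2 (0.31), Pdp1 (0.40), Pdpr (0.27), Gpt2 (0.27), Pcx (-0.37), Slc25a13 (-0.26) and Keap1 (-0.26). In the other subunits of the cycle 1 of 8 was lower and 0 were higher. That 1 is Dlst, the succinyltransferase core of the oxoglutarate dehydrogenase complex, with a log2 fold change of -0.31 with an SE of 0.076 (adjusted p = 0.00628), from 139 ± 9.96 to 112 ± 8.53 CPM, while its partner Ogdh did not pass. Suclg2, the beta subunit of the GTP-forming succinyl-CoA synthetase, had a log2 fold change of 0.15 (adjusted p = 0.23). Without JHU083 replicate 3, 3 of the 8 subunits were lower, and 0 were lower within either set of samples split by the ribosomal loci, where Dlst stood at -0.30 in both (adjusted p = 0.179 and 0.0866). None of the 4 tested assembly factors of succinate dehydrogenase passed, nor did any of the 5 subunits of the pyruvate dehydrogenase complex, which makes acetyl-CoA from pyruvate. In both of these lists 0 genes passed at an unadjusted p of 0.05 in edgeR, and 0 passed with DESeq2.

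Of the regulators of the pyruvate dehydrogenase complex, 3 of the 6 tested were higher and 2 lower, beside 18.4% and 18.3% of all tested loci. The kinases Pdk1 and Pdk3, which switch the complex off, fell by 0.52 (adjusted p = 0.00035) and 0.33 (adjusted p = 0.00263) on the log2 scale, and in both all JHU083 samples lay below all vehicle samples. The kinase Pdk2 rose by 0.47 (adjusted p = 0.0232), a call that was lost without vehicle replicate 1 (0.42) or 2 (0.45) or JHU083 replicate 1 (0.42) or 2 (0.37). Pdpr, the regulatory subunit of the activating phosphatase, rose by 0.65 (adjusted p = 0.0174; without vehicle replicate 4, 0.57 with adjusted p = 0.0516). The third, the phosphatase Pdp1, is named after its values were seen: it rose by 0.37 (adjusted p = 0.039) and lost its call in 7 of the 10 fits without 1 sample. Those were the fits without vehicle replicate 1, 2, 4 or 5 or JHU083 replicate 2, 4 or 5 (0.32 to 0.41). Scaling by library size alone ended the calls of Pdk2 (0.39, adjusted p = 0.0594) and Pdp1 (0.30, adjusted p = 0.0994). A block for the replicate number also ended those of Pdk2 (0.45, adjusted p = 0.0658) and Pdp1 (0.37, adjusted p = 0.106). Pdp1 lost its call with upper-quartile scaling (0.35, adjusted p = 0.0531) and without the filter on low counts (0.37, adjusted p = 0.126). Pdk4 was too low to be tested.

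Among 6 cytosolic partner enzymes 1 was higher (2 without JHU083 replicate 2) and 2 were lower, a share of higher genes near that of all tested loci (18.4% higher, 18.3% lower). Idh1, the cytosolic NADP-dependent isocitrate dehydrogenase, rose from 111 ± 2.12 to 140 ± 6.31 CPM (SD, n = 5 each; log2 fold change 0.34, SE 0.061, adjusted p = 0.000823), and all JHU083 samples were above all vehicle samples. Its mitochondrial counterparts Idh3a and Idh2 had log2 fold changes of -0.35 and -0.16. Acly, which splits exported citrate for fatty acid and sterol synthesis, fell by 0.31 (adjusted p = 0.00269), from 507 ± 19.8 to 409 ± 27.8 CPM. The cytosolic malic enzyme Me1 was low and went from 2.43 ± 0.534 to 0.887 ± 0.302 CPM (log2 fold change -1.44, SE 0.27, adjusted p = 0.00118). Mdh1 had a log2 fold change of -0.18 (adjusted p = 0.0935), which passed at -0.23 without JHU083 replicate 3 (adjusted p = 0.0142), at -0.26 under scaling by library size alone (adjusted p = 0.012) and at -0.20 with limma-voom's sample weights (adjusted p = 0.0222).

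Of the genes that bring carbon from pyruvate and glutamate into the cycle, 1 of the 5 tested was higher and 3 were lower, beside 18.4% and 18.3% of all tested loci. The mitochondrial malic enzyme Me2 fell by 0.49 (adjusted p = 0.000904), and Got2, the mitochondrial aspartate aminotransferase, fell by 0.37 (adjusted p = 0.00325). Gpt2, the mitochondrial alanine aminotransferase, which makes alpha-ketoglutarate from glutamate, rose by 0.42 (adjusted p = 0.0121). The third lower gene is pyruvate carboxylase, Pcx, named after its values were seen, which fell by 0.39 (adjusted p = 0.0393). Its call was lost without vehicle replicate 1, 2, 4 or 5 or JHU083 replicate 2, 4 or 5, with values from -0.41 to -0.34. The call of Pcx was also lost without the filter on low counts (-0.39, adjusted p = 0.105). With a block for the replicate number it was lost too (-0.40, adjusted p = 0.0796). Me3 was too low to be tested.

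The mitochondrial carriers that connect the cycle with the cytosol had 3 of 7 genes lower and 0 higher (0 also at an unadjusted p of 0.05 and with DESeq2), beside 18.3% lower among all tested loci. Without JHU083 replicate 3, 5 were lower, and within the samples with no fragments at the ribosomal loci 0 were. The citrate carrier Slc25a1 went from 87.4 ± 7.76 to 60.5 ± 9.68 CPM, a log2 fold change of -0.53 with an SE of 0.10 (adjusted p = 0.00142). Both aspartate-glutamate carriers of the malate-aspartate shuttle were lower, Slc25a12 by a log2 fold change of -0.48 (adjusted p = 0.000579) and Slc25a13 by -0.36 (adjusted p = 0.0242). For all 3 every JHU083 sample lay below every vehicle sample. The call of Slc25a13 was lost without vehicle replicate 1 (-0.34) or 2 (-0.33) or JHU083 replicate 1 (-0.30). It was also lost without the filter on low counts (-0.37, adjusted p = 0.0655) and with a block for the replicate number (-0.37, adjusted p = 0.0674). The oxoglutarate carrier Slc25a11, of the same shuttle and named after its values were seen, did not pass (log2 fold change -0.12, adjusted p = 0.39).

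**Figure D4:**
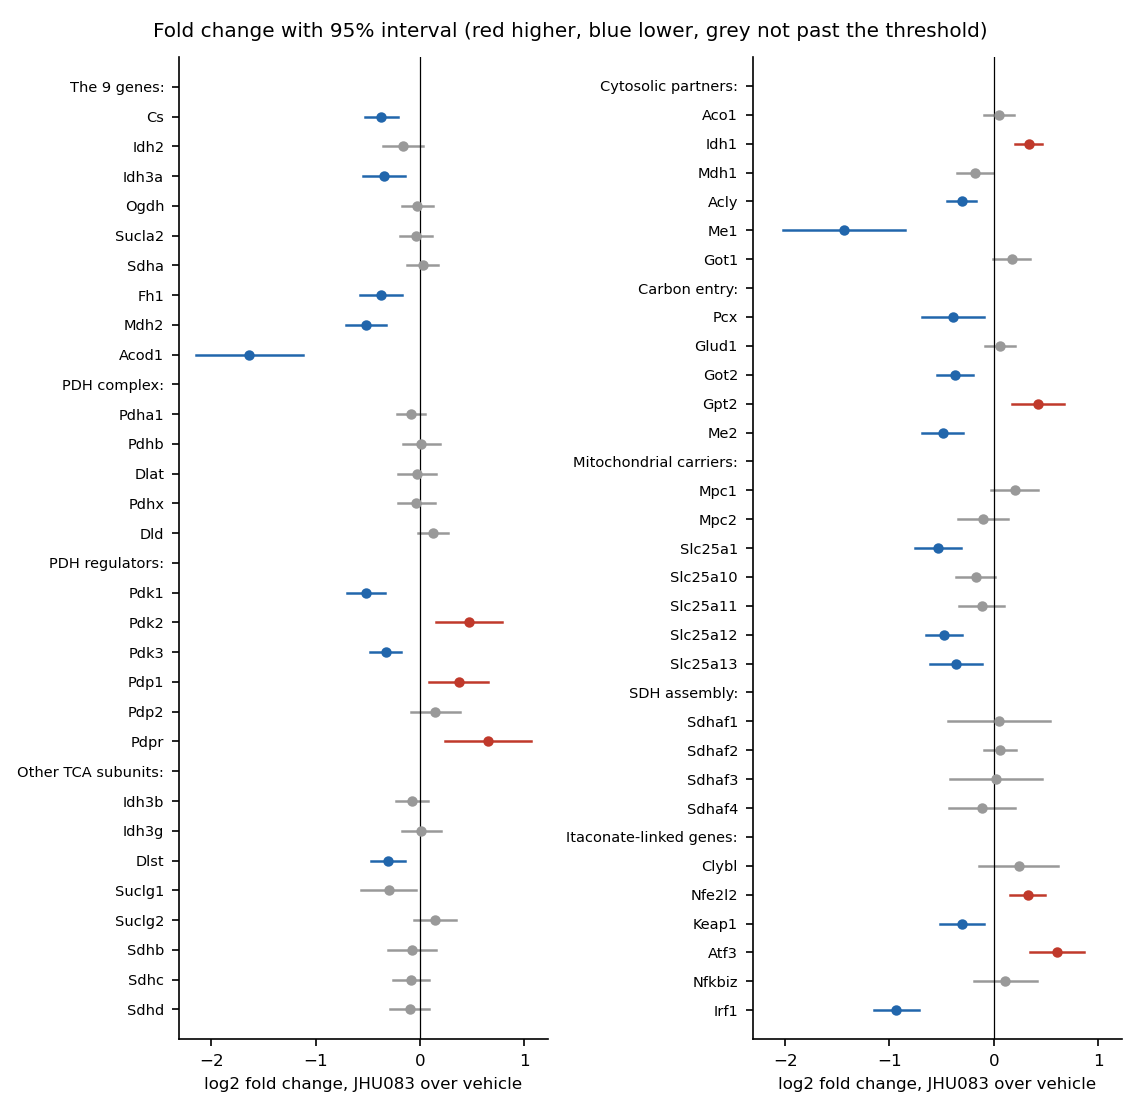
Log2 fold change of JHU083 over vehicle (x axes) with its 95% interval for the 9 genes and the 47 tested genes of the 8 groups; red marks genes that were higher, blue genes that were lower and grey genes that did not pass an adjusted p of 0.05. Acod1 and Me1 lie farthest to the left, at -1.64 and -1.44.

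Of the genes linked to itaconate through its induction or its known effects, 2 of the 6 tested were higher and 2 lower, beside 18.4% and 18.3% of all tested loci. Irf1, an interferon-induced transcription factor reported to drive Acod1, went from 182 ± 17.1 to 95.1 ± 14.0 CPM, a log2 fold change of -0.93 with an SE of 0.10 (adjusted p = 1.58e-05) with no overlap between groups. Itaconate modifies Keap1, which holds back Nrf2 (gene Nfe2l2), and acts on an Atf3-dependent pathway. Nfe2l2 rose by 0.33 (adjusted p = 0.00551), from 221 ± 4.26 to 277 ± 32.8 CPM, and Atf3 rose by 0.61 (adjusted p = 0.00152), from 421 ± 33.2 to 641 ± 126 CPM. Keap1 fell by 0.30 (adjusted p = 0.0276), a call that was lost in 7 of 10 fits without 1 sample (vehicle replicate 1, 4 or 5, JHU083 replicate 1, 2, 4 or 5; -0.30 to -0.26). Oxgr1, reported as a receptor for itaconate, had 0 CPM in all samples and was not tested.

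The genes whose levels followed Acod1 most closely over the 10 samples, among 10126 loci with a mean log2 CPM of at least 2, were Klrk1, Dnajb1, Gpr55, Il1r2 and Rhbdd2. Their Pearson r of log2 CPM with Acod1 was 0.982, 0.973, 0.969, 0.968 and 0.967, and that of deviations from the group means was 0.920, 0.887, 0.920, 0.871 and 0.859. Klrk1, which encodes the activating receptor NKG2D, was at 13.3 ± 0.993 CPM in vehicle and 4.99 ± 1.88 CPM in JHU083 samples. Il1r2, the decoy receptor of interleukin-1, was at 93.4 ± 10.3 and 26.6 ± 8.60 CPM. Dnajb1, a co-chaperone of the heat shock response, was at 577 ± 30.5 CPM in vehicle samples and had a log2 fold change of -0.64 (SE 0.091). All 5 were lower in JHU083 samples, as the choice by likeness to a gene that fell would give, so their direction is no result of its own.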

How the data were processed

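Polyadenylated RNA was sequenced as paired ends, per the labels' protocols, and per the submitters' processing notes bcl2fastq 2.17.1.14, FastQC 0.11.2, TopHat2 2.1.1 and the GRCm38 build were used. The counting program is not given in the sources used here. The column the authors deposited as raw counts holds expected counts that are not whole. In each sample at least 99.9% of values under 20 fragments were whole multiples of a step (0.888 to 1.17) within 0.02; dividing by it and rounding gave the fragments. The authors deposited FPKM in the other column. Positions are from GENCODE M21.

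Loci were tested with edgeR 4.0.16 (filterByExpr, TMM, quasi-likelihood F-test, Benjamini-Hochberg at 0.05), and the SE is the absolute log2 fold change divided by the square root of F. Adjusted p-values come from edgeR where no other tool is named. CPM use TMM-scaled totals, and the prior count in log2 CPM was 2. The ratios printed are of fragments with no prior count added, and a prior count of 2 was an alternative. Alternatives used DESeq2 1.42.0 and limma 3.58.1, other scalings and filters, sample subsets and a replicate block. Genes, lists and tests were chosen with earlier results of these data known. Named genes are the 9, up to 4 called genes per list by adjusted p, those in ratios and the 5 most like Acod1. Some genes of the lists and a ratio are not reported here, and the counts of the lists leave them out.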

Additional observations from a re-analysis of the deposited data

Results flagged for a closer look

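Among 68 combinations of a gene or ratio and a group of 5 samples, 4 had 1 sample far from the other 4, with a gap above 0.71 of the group's range; chance gives about 1 in 20, or 3.4. In JHU083 replicate 3, Idh2 was at 7.46 log2 CPM (the other 4 at 7.03 to 7.12) and Sucla2 at 5.59 (5.38 to 5.43). In JHU083 replicate 1, Gpt2 was at 4.78 log2 CPM (the others at 5.22 to 5.40). In vehicle replicate 4, Acly was at 8.88 log2 CPM (the others at 8.99 to 9.02).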

How the results depend on the processing

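Over 26 alternatives Acod1 was past the threshold in 26, Cs, Idh3a, Fh1 and Mdh2 in 25, Idh2 in 3, and Ogdh, Sucla2 and Sdha in 0. Within the samples listed at 0 for Rn18s-rs5 and Gm42418 (3 against 2), Cs (-0.32), Idh3a (-0.24), Fh1 (-0.30) and Mdh2 (-0.41) lost their call, 1 of the 9 genes was lower, Sucla2 was at 0.04, and 0 pathway genes were higher and 2 lower. Within the others (2 against 3), Ogdh was at 0.03, Sdha at -0.04, Suclg2 at -0.03, and 2 pathway genes were higher. These sets hold fewer samples and called 586 and 1545 loci lower and 532 and 1274 higher. Scaling by library size alone shifted the median of all loci to -0.07, gave 1564 higher and 3141 lower calls (2296 and 2293 with TMM), and put Idh2 at -0.25 (called) and Sdha at -0.06, ended the calls of Pdk2 and Pdp1 and added that of Mdh1. With voom sample weights Idh2 was called at -0.22. On FPKM, chosen after seeing the data, Sucla2 was at 0.04 and 3 pathway genes were higher. With a replicate block, all 5 calls of the 9 genes held, and all loci gave 1612 higher and 1757 lower. The block ended the calls of Pdk2, Pdp1, Pcx, Slc25a13 and Keap1 (adjusted p from 0.0638 to 0.106). Deviations from the group means correlated between -0.569 and 0.091 in same-numbered samples. Every such pair differed in status at Rn18s-rs5 and Gm42418, so these values cannot tell whether the numbers pair samples. The ratio Mdh2 to Mdh1 was -0.34 with the block (smallest p 0.0625), -0.36 in samples listed at 0 and -0.31 in the others, designs that cannot pass. Leaving out 1 sample gave -0.24 to -0.13 for Idh2, -0.05 to 0.01 for Ogdh, -0.02 to 0.06 for Sdha and -0.25 to -0.15 for Sucla2 to Suclg2. Fits of the 22 pathway genes under these alternatives kept direction and side of the threshold 491 times, lost the call 76 times and gained it 3 times. The stricter filter removed Me1. The cause of these changes was not tested. Acod1 rests on 26 to 109 fragments per JHU083 sample.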
